A study of Mus musculus with 10 samples.

Results

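The Kruppel-like factors (KLF) are zinc finger transcription factors that bind GC-rich and CACCC sequences. Of their genes, 10 are described here in mouse pancreatic islets: Klf2, Klf3, Klf4, Klf5, Klf6, Klf7, Klf10, Klf11, Klf13 and Klf15. They were taken by gene symbol, and all 10 were found among the 27665 genes of the deposited table. RNA from islets of male C57BL/6J mice had been sequenced after 4 weeks on a western diet (5 mice) or on standard chow (5 mice), in mice aged 8 to 10 weeks when fed these diets, with 1 library per mouse. The labels give no genetic change and no other treatment in either group. The western diet mice came from cage 4 (4 mice) and cage 2 (1 mouse) and all chow mice from cage 3, so the effects of diet and of cage cannot be told apart.

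KLF proteins share a DNA-binding end of zinc fingers and differ in the rest of the protein, which recruits either activating or repressing partners. Several of their genes, among them Klf2, Klf4, Klf6 and Klf10, are switched on quickly by stimuli such as serum, shear stress, injury or growth factors, and their transcripts are short-lived. Others are tied to metabolism: Klf15 is a glucocorticoid-responsive regulator of amino acid and glucose handling, and Klf11 binds the insulin promoter and is linked in humans to inherited diabetes.

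Libraries held 1.65e+07 to 2.39e+07 counted reads, and each of the 10 genes had at least 152 counts in each library. Levels are given as CPM, counts scaled to a common library size with TMM factors. Genes were compared with edgeR's quasi-likelihood test, and a gene is called higher or lower at an adjusted p under 0.05 over the 15104 genes tested. Log2 fold changes and log2 differences are western diet over chow. Markers of beta cells summed to 221331 to 254612 CPM in libraries of western diet mice and to 213267 to 247134 CPM in chow libraries, so the defining markers of the labelled tissue were abundant.

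In all, 6 of the 10 genes were lower in islets of western diet mice and 1 was higher. The lower genes were Klf2, Klf5, Klf6, Klf7, Klf10 and Klf13, and the higher gene was Klf15, while Klf3, Klf4 and Klf11 did not pass the test. Over all 15104 genes, 5.50% were called lower and 5.27% higher. The median log2 fold change (western diet over chow) was -0.37 over the 10 genes and 0.01 over all genes tested. In 6 of the 10 genes (Klf2, Klf4, Klf5, Klf6, Klf10 and Klf13) each western diet library lay below each chow library, a separation seen in 4.42% of all genes tested. None of the 10 had all western diet libraries above all chow libraries, which 4.44% of all genes tested had. The 10 genes summed to 419 to 586 CPM in libraries of western diet mice and to 722 to 868 CPM in chow libraries. In bulk islet RNA, fewer cells of a type that expresses a gene and less of its RNA per cell cannot be told apart, and this holds for each level below.

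**Figure D1:**
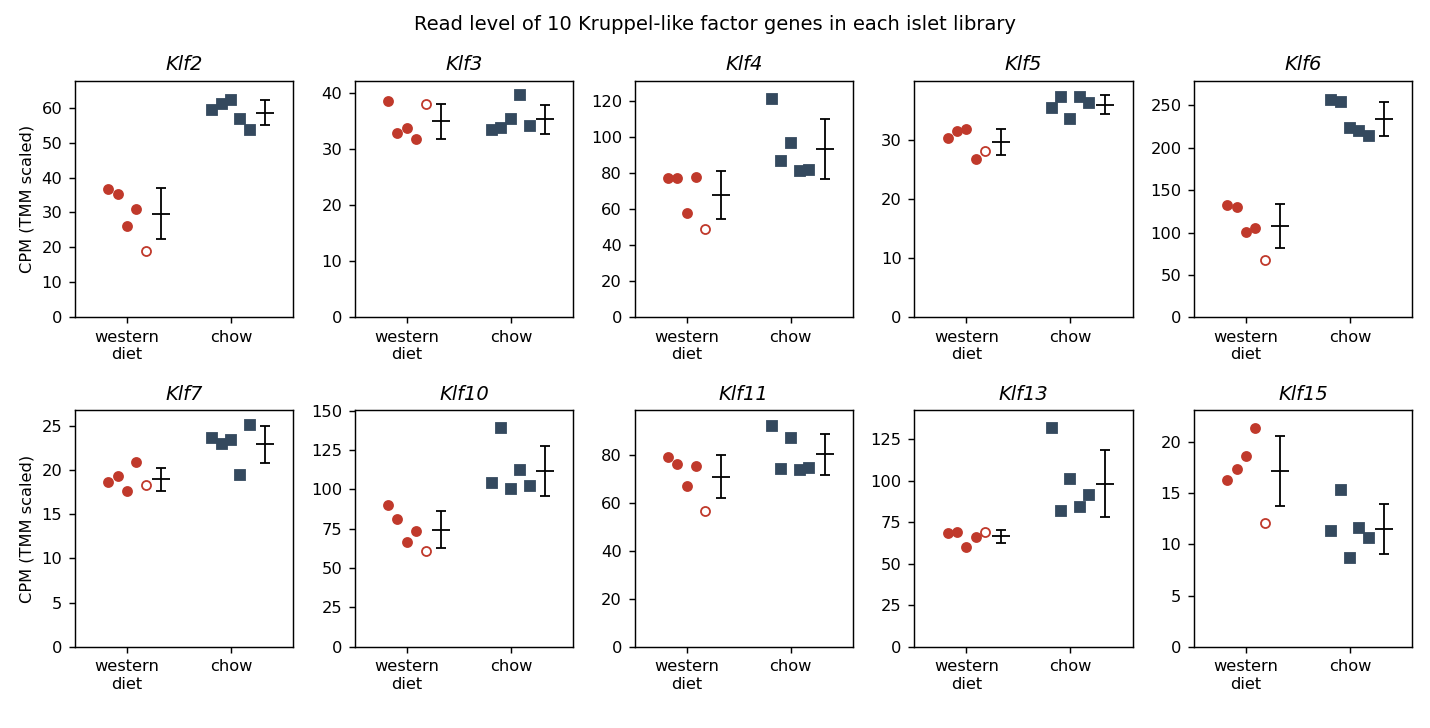
CPM of the 10 genes in each library, with western diet mice as circles on the left, chow mice as squares on the right, and the mean and SD over 5 mice as a bar beside them. The open circle is the western diet mouse of cage 2. Klf2 and Klf6 have the widest gaps, with western diet libraries at 18.9 to 36.7 CPM and chow libraries at 53.6 to 62.2 CPM for Klf2, while the western diet libraries of Klf15 sit mostly above the chow ones.

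Promoter sequence of the genes with the strongest changes in each direction is shown first, since Klf2 and Klf6 fell furthest and Klf15 moved the other way. The sequences are RefSeq's on build GRCm38.p6, on the + strand, and run up to the base before the first annotated transcript base, with at most 250 bases before the RefSeq start. Capitals mark GC boxes (GGGCGG) and CCAAT boxes (CCAAT), searched on both strands. The Klf2 stretch is chr8:72318812-72319032, the Klf6 stretch is chr13:5861239-5861481 and the Klf15 stretch is chr6:90462326-90462575.
Klf2: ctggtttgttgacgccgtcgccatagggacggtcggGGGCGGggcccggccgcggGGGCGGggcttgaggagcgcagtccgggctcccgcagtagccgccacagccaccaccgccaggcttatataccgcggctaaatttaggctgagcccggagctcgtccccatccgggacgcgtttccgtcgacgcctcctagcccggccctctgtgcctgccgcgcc
Klf6: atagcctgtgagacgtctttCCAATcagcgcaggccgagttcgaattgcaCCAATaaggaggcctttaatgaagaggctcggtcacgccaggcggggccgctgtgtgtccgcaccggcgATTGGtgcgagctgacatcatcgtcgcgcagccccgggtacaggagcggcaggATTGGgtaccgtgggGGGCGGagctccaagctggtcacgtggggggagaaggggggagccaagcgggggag
Klf15: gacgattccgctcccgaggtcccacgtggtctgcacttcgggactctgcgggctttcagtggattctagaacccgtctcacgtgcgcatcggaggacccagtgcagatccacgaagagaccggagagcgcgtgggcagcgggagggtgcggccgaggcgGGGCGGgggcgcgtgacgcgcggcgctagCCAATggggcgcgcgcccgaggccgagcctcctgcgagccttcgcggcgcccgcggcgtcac

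The Klf2 stretch holds 2 GC boxes, starting 214 and 195 bases before the RefSeq start, and no CCAAT box. Klf6 has 1 GC box, starting 63 bases before its start, and 4 CCAAT boxes, 2 of them on the opposite strand. Klf15 has 1 GC box and 1 CCAAT box, starting 91 and 62 bases before its start. The CCAAT box was thus present in the Klf6 and Klf15 stretches and absent from that of Klf2.

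RefSeq promoter windows (250 bases before to 50 after the start) were at hand for 8 of the 10 genes, without Klf5 and Klf10. A GC box, the motif that KLF and SP proteins bind, was found in 8 of these 8 windows and in 35.7% of 32851 windows of all genes. The windows of the 8 genes were 58.3% to 77.7% G and C, against a median of 52.7% over all windows, and the part of this base composition in the GC box count was not tested. Klf3 had the most GC boxes with 6, and Klf4 and Klf11 had 4 each. The Klf7 window lies inside the gene as the deposited table annotates it. A CCAAT box was in 4 of the 8 (Klf6, Klf11, Klf13 and Klf15), against 37.4% of all windows. The short form TGACG of the cAMP response element was in 5 of the 8 (Klf2, Klf3, Klf4, Klf13 and Klf15), against 20.8% of all windows, and the whole site TGACGTCA was in 0 of the 8, against 1.79%. The AP-1 site TGANTCA, bound by FOS and JUN proteins, was in 0 of the 8, against 7.81% of all windows. The heat shock unit pair GAANNTTC was in 0 of the 8, against 7.86%, and the CArG box, bound by SRF, in 0 of the 8, against 1.63%. The TATA box TATAAA was in 0 of the 8, against 13.6%, and the longer CACCC box CCACACCC in 0 of the 8, against 3.56%. The core CACCC alone was not counted, and the Klf15 stretch holds it on the opposite strand. All motifs were searched on both strands, the short form is contained in the whole response element, and a match or its lack describes only the letters of the window.

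The 2 genes that fell furthest were Klf6 and Klf2. Klf6, on chromosome 13 from 5861482 to 5870394 (ENSMUSG00000000078), encodes a factor induced by tissue injury that drives cell cycle inhibitors. In western diet mice 1, 2, 5 and 4 of cage 4 and mouse 5 of cage 2 it stood at 132, 130.2, 101, 106 and 68.1 CPM, and in chow mice 1 to 5 at 256, 254, 223, 220.0 and 214 CPM. The highest western diet library was well below the lowest chow library, and the mouse of cage 2 was lowest of all. Klf6 averaged 107 ± 26.1 CPM in western diet mice and 233 ± 20.1 CPM in chow mice (SD, n = 5 each). Its log2 fold change was -1.12 ± 0.17 (SE; edgeR adjusted p = 0.00609), with a 95% interval of -1.51 to -0.73. Of the 10700 genes that averaged 5 CPM or more, its fold change ranked 25 from the most negative.

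Klf2, on chromosome 8 from 72319033 to 72321656 (ENSMUSG00000055148), encodes a factor known from endothelial cells, where blood flow induces it, and from resting T cells. Its level was 36.7, 35.3, 26.1, 31.0 and 18.9 CPM in western diet mice 1, 2, 5 and 4 of cage 4 and mouse 5 of cage 2, and 59.2, 61.1, 62.2, 56.8 and 53.6 CPM in chow mice 1 to 5. The diets did not overlap, and the mouse of cage 2 was again lowest. Mean levels were 29.6 ± 7.26 CPM in western diet mice and 58.6 ± 3.47 CPM in chow mice (SD, n = 5 each). The log2 fold change of Klf2 was -0.99 ± 0.16 (SE; edgeR adjusted p = 0.00597), with a 95% interval of -1.34 to -0.63. Between mice of one diet, Klf2 varied more on western diet, with a coefficient of variation of 24.5%, than on chow, with 5.92%; this difference in spread was not tested.

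Klf2 and Klf6 had the most similar profiles of the 45 pairs among the 10 genes. The measure is the root mean square distance between centred log2(CPM + 0.5) profiles over the 10 libraries, which takes in the diet difference as well as differences between mice of one diet. It was 0.103 for Klf2 and Klf6, and the next pair, Klf5 and Klf7, stood at 0.156. Klf6 and Klf15 were farthest apart at 0.885. Among 10312 genes of at least 5 CPM, Klf6 was the gene nearest to Klf2, followed by Jund at 0.154 and Rhob at 0.155, and Klf2 was the gene nearest to Klf6, followed by Atf3 at 0.164 and Arc at 0.167. Jund and Atf3 encode transcription factors of the AP-1 and ATF group, Rhob a small GTPase and Arc a synaptic protein. Atf3, Rhob and Arc are known to respond early to stimuli.

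**Figure D2:**
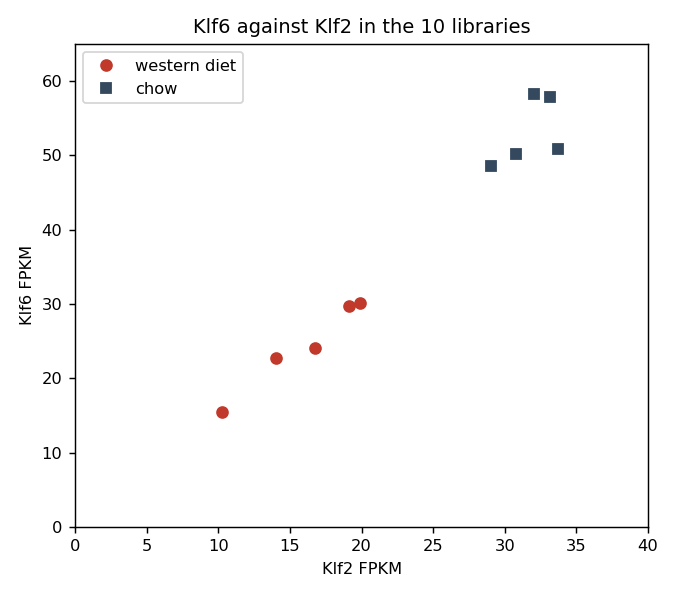
FPKM of Klf6 (vertical axis) against Klf2 (horizontal axis) in each library, with western diet mice as circles and chow mice as squares. The groups do not overlap on either axis, and the ratio of Klf6 to Klf2 is 1.44 to 1.62 in western diet mice and 1.51 to 1.82 in chow mice.

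Per gene length, in the FPKM that the authors deposited, the ratio of Klf6 to Klf2 was 1.53 ± 0.06 in western diet mice and 1.68 ± 0.12 in chow mice (SD, n = 5 each). The ratios of the diets overlapped through chow mouse 3, at 1.51, while the other chow mice, at 1.63 to 1.82, lay above the western diet mice, at 1.44 to 1.62. The mouse of cage 2, lowest for both genes, had a ratio of 1.51, within the range of the other western diet mice.

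Klf10 and Klf13 fell by less. Klf10, on chromosome 15 from 38291463 to 38300706 (ENSMUSG00000037465), is known as a TGF-beta inducible early gene and encodes a repressor that recruits SIN3. Its level was 89.9, 81.2, 66.7, 73.5 and 61.0 CPM in western diet mice 1, 2, 5 and 4 of cage 4 and mouse 5 of cage 2, and 104, 139, 100.4, 112 and 102 CPM in chow mice 1 to 5. All western diet libraries were below all chow libraries, and chow mouse 2 stood above the others of its diet. The log2 fold change was -0.58 ± 0.12 (SE; edgeR adjusted p = 0.0138), on means of 74.5 ± 11.5 CPM in western diet mice and 111 ± 15.9 CPM in chow mice (SD, n = 5 each).

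Klf13, on chromosome 7 from 63886351 to 63938915 (ENSMUSG00000052040), is related to Klf10 in its use of SIN3 and is known as a late activator of a chemokine gene in T cells. It stood at 68.3, 69.4, 60.2, 65.9 and 69.2 CPM in western diet mice 1, 2, 5 and 4 of cage 4 and mouse 5 of cage 2, and at 132, 82.0, 101, 84.4 and 91.7 CPM in chow mice 1 to 5. Here the western diet libraries lay close together and the mouse of cage 2 did not stand apart, while chow mouse 1 was far above the other chow mice. Its log2 fold change was -0.56 ± 0.12 (SE; edgeR adjusted p = 0.0169), on means of 66.6 ± 3.85 CPM in western diet mice and 98.2 ± 20.4 CPM in chow mice (SD, n = 5 each). With chow mouse 1 left out and with each other mouse left out, Klf13 was still called lower.

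Klf5 and Klf7 showed the smallest falls that passed the test. Klf5, on chromosome 14 from 99298691 to 99315036 (ENSMUSG00000005148), encodes a factor of dividing epithelial cells and vascular smooth muscle. Western diet mice 1, 2, 5 and 4 of cage 4 and mouse 5 of cage 2 had 30.2, 31.5, 31.8, 26.7 and 28.0 CPM, and chow mice 1 to 5 had 35.4, 37.2, 33.5, 37.2 and 36.2 CPM. The groups were narrow and did not overlap, so that a log2 fold change of only -0.28 ± 0.06 (SE) passed the test (edgeR adjusted p = 0.00925). The genes nearest to Klf5 by the same distance were Srebf2, which encodes a regulator of cholesterol synthesis, at 0.054, the adhesion gene Nectin3 at 0.055 and the actin regulator Wasf2 at 0.059.

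Klf7, on chromosome 1 from 64029447 to 64122282 (ENSMUSG00000025959), is known for its role in developing neurons. It had 18.6, 19.3, 17.6, 20.9 and 18.3 CPM in western diet mice 1, 2, 5 and 4 of cage 4 and mouse 5 of cage 2, and 23.6, 22.9, 23.4, 19.5 and 25.1 CPM in chow mice 1 to 5. The diets overlapped, because western diet mouse 4 of cage 4 was above chow mouse 4. The log2 fold change was -0.28 ± 0.08 (SE; edgeR adjusted p = 0.0298). This call depended on single mice: it was lost when western diet mouse 1, 2 or 5 of cage 4, the mouse of cage 2, or chow mouse 1, 3 or 5 was left out, with adjusted p of 0.0115 to 0.0744 over the 10 fits that each left out 1 mouse.

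Klf15 moved the other way. It lies on chromosome 6 from 90462576 to 90475238 (ENSMUSG00000030087) and encodes a regulator of amino acid breakdown and glucose production that fasting and glucocorticoids induce in liver and muscle. Its level was 16.3, 17.3, 18.6, 21.3 and 12.1 CPM in western diet mice 1, 2, 5 and 4 of cage 4 and mouse 5 of cage 2, and 11.3, 15.3, 8.69, 11.6 and 10.6 CPM in chow mice 1 to 5. The 4 mice of cage 4 were above all chow mice, whereas the mouse of cage 2 lay within the chow range. Klf15 averaged 17.1 ± 3.38 CPM in western diet mice and 11.5 ± 2.41 CPM in chow mice (SD, n = 5 each), with a log2 difference of 0.57 ± 0.16 (SE; edgeR adjusted p = 0.0376) and a 95% interval of 0.22 to 0.91. The call held without the mouse of cage 2 and without chow mouse 2, and was lost when any 1 of the other 8 mice was left out, with adjusted p of 0.00448 to 0.0962 over the 10 fits.

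The other 3 genes did not pass the test. Klf4, on chromosome 4 from 55527143 to 55532466 (ENSMUSG00000003032), encodes a factor of differentiated epithelium and endothelium that is also one of the genes used to reprogram cells to pluripotency. It had 76.9, 77.2, 58.0, 77.9 and 49.0 CPM in western diet mice 1, 2, 5 and 4 of cage 4 and mouse 5 of cage 2, and 121, 86.6, 96.8, 81.3 and 81.4 CPM in chow mice 1 to 5. The libraries did not overlap, though the gap between the diets was narrow. The log2 fold change was -0.46 ± 0.17 (SE) with a 95% interval of -0.84 to -0.08, an unadjusted p of 0.0220 and an edgeR adjusted p of 0.114. Klf4 passed with DESeq2 (adjusted p = 0.0451), with limma-voom (adjusted p = 0.0376) and in edgeR without robust moderation (adjusted p = 0.0390), so its call turned on the method.

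Klf11, on chromosome 12 from 24651274 to 24662789 (ENSMUSG00000020653), had 56.7 to 78.8 CPM in western diet mice and 73.6 to 91.9 CPM in chow mice. The diets overlapped, and the log2 fold change of -0.18 had a 95% interval of -0.38 to 0.02 (edgeR adjusted p = 0.234). Klf3, on chromosome 5 from 64803388 to 64832901 (ENSMUSG00000029178), encodes a repressor that works through the corepressor CtBP. It had 31.7 to 38.5 CPM in western diet mice and 33.3 to 39.7 CPM in chow mice, and the groups overlapped along most of their range. Its log2 fold change of -0.01 had a 95% interval of -0.15 to 0.14 (edgeR adjusted p = 0.966), so a change of the size seen in Klf5 or Klf7 lay outside the interval of Klf3.

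The authors' deposited table gives log2 fold changes for the 10 genes within 0.003 of these. Of the 10, 7 had in the authors' deposited table an adjusted p under 0.05, and these were the 7 called here, and Klf4 stood at 0.0512.

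**Figure D3:**
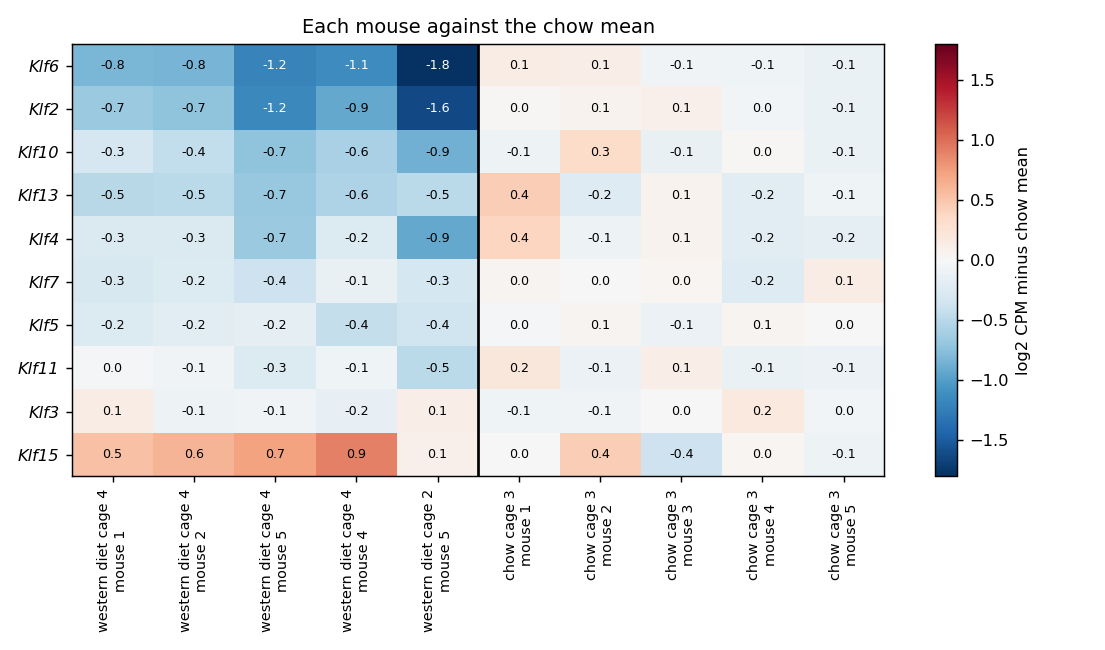
Log2 CPM of each gene (rows, ordered by fold change) in each mouse (columns) minus the mean of the chow mice, with western diet mice left of the black line. Blue is lower and red is higher than the chow mean. The mouse of cage 2 is the darkest blue for Klf6 and Klf2, at 68.1 and 18.9 CPM, and lacks the red of the other western diet mice for Klf15.

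Within the western diet group some mice stood low or high for several of the 10 genes, but none for all of them. Mouse 4 of cage 4 was the highest of its diet for 3 genes and the lowest for 2, and the mouse of cage 2 deviated by -0.62 to 0.13. The mouse of cage 2 was the lowest of its diet for 6 of the 10 genes (Klf2, Klf4, Klf6, Klf10, Klf11 and Klf15), and its median log2 deviation from the mean of its diet was -0.29. Mouse 1 of cage 4 was the highest of its diet for 5 genes (Klf2, Klf3, Klf6, Klf10 and Klf11), with a median deviation of 0.15. Median deviations of chow mice were -0.10 to 0.03, but on single genes these mice deviated by -0.38 to 0.45. Western diet mice deviated by -0.62 to 0.35 on single genes. The coefficient of variation was larger on chow for Klf7, Klf13 and Klf15 and larger on western diet for the other genes. Chow mouse 1 was the highest of its diet for Klf4, Klf6, Klf11 and Klf13. With both the mouse of cage 2 and chow mouse 1 left out, 5 of the 10 genes were called lower and 1 higher, the lost call being Klf7 (edgeR adjusted p = 0.0879).

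Levels of different genes can be compared only per gene length, for which the deposited FPKM was used. In western diet islets, Klf6 led the 10 genes with 24.4 ± 5.98 FPKM, followed by Klf4 with 22.2 ± 4.44, Klf10 with 17.8 ± 2.78, Klf11 with 16.3 ± 2.09 and Klf2 with 16.0 ± 3.95 FPKM (SD, n = 5 each). Libraries of each of these overlapped those of its neighbour in the order. In chow islets Klf6 had 53.1 ± 4.55 FPKM, Klf2 31.7 ± 1.89, Klf4 30.7 ± 5.46, Klf10 26.7 ± 3.82 and Klf11 18.4 ± 1.97 FPKM (SD, n = 5 each). There, Klf6 did not overlap Klf2, nor Klf10 overlap Klf11, while Klf2, Klf4 and Klf10 overlapped in turn. Klf2 had a lower mean than Klf10 and Klf11 on western diet, where the libraries of all 3 overlapped, and a higher mean than both on chow. Lower in the order, western diet islets had Klf13 at 8.83 ± 0.548, Klf15 at 6.12 ± 1.20, Klf5 at 5.68 ± 0.418, Klf3 at 3.11 ± 0.282 and Klf7 at 2.33 ± 0.155 FPKM (SD, n = 5 each). Chow islets had Klf13 at 13.0 ± 2.69, Klf5 at 6.90 ± 0.297, Klf15 at 4.12 ± 0.866, Klf3 at 3.13 ± 0.231 and Klf7 at 2.82 ± 0.254 FPKM (SD, n = 5 each). Klf15 and Klf5 changed places between the diets, although their western diet libraries overlapped. Klf13 stood apart from the genes under it on both diets, and Klf3 stood apart from Klf7 on western diet but not on chow.

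Summed over the 10 genes, FPKM was 123 ± 19.6 in western diet mice and 191 ± 14.3 in chow mice (SD, n = 5 each). The makeup of this sum differed as well. Klf6 took 19.7% ± 2.07 of it in western diet mice and 27.9% ± 0.794 in chow mice, and Klf2 took 12.9% ± 1.28 in western diet mice and 16.7% ± 0.941 in chow mice. Klf11 took 13.3% ± 0.512 in western diet mice and 9.68% ± 0.748 in chow mice, and Klf15 took 5.01% ± 0.841 in western diet mice and 2.16% ± 0.419 in chow mice (SD, n = 5 each). For each of these 4 genes the shares of the diets did not overlap, nor did they for Klf3 and Klf5. The shares are parts of one sum, so the share of a gene can rise while its own level does not. Klf11, Klf3 and Klf5 had larger shares on western diet, with log2 fold changes of -0.18, -0.01 and -0.28.

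**Figure D4:**
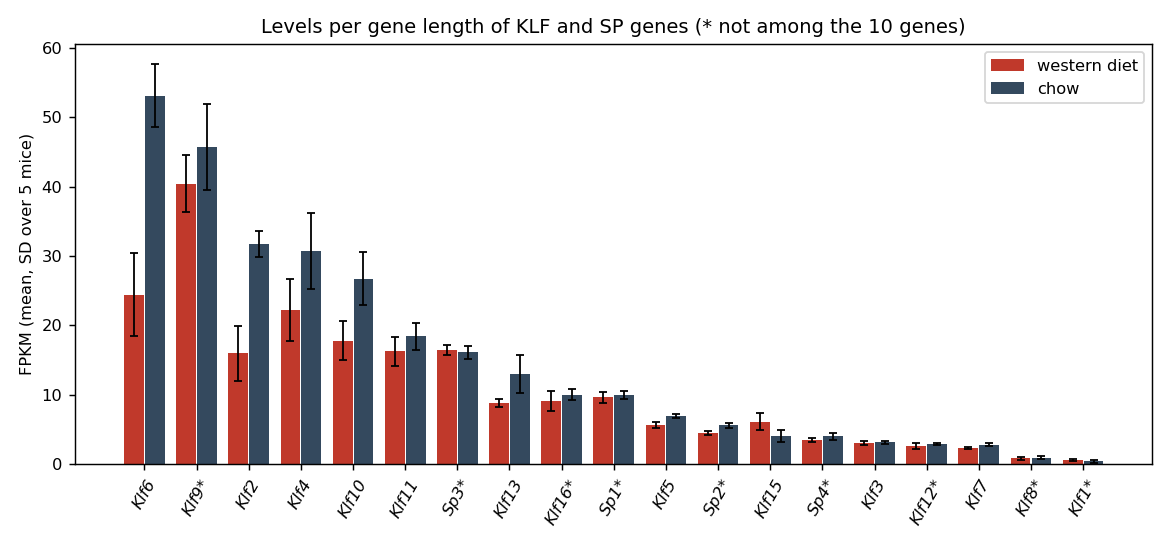
Mean FPKM with SD over 5 mice of the KLF and SP genes tested, with western diet bars left of chow bars, ordered by their mean FPKM on chow. A star marks genes that are not among the 10. Klf6 has the tallest chow bar at 53.1 FPKM and Klf9 the tallest western diet bar at 40.4 FPKM.

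Other genes of the family were compared with the 10. Another 5 KLF genes were tested (Klf1, Klf8, Klf9, Klf12 and Klf16). Of these, 0 were called with edgeR, DESeq2 or limma-voom and 0 had an unadjusted p under 0.05. Of all genes tested, 5.50% were called lower and 5.27% higher, and 0 of 5 is not far from these shares. Log2 fold changes of the 5 were -0.18 to 0.39, with a median of -0.13. Klf1, at 0.39, was scarce, averaging 0.901 CPM in western diet mice and 0.684 CPM in chow mice. Klf9, which glucocorticoids and thyroid hormone induce, had the highest FPKM of the family on western diet at 40.4 ± 4.12, against 45.7 ± 6.23 on chow (SD, n = 5 each). It was 132 ± 13.6 CPM in western diet mice and 149 ± 20.5 CPM in chow mice, with a log2 difference of -0.18 ± 0.09 (SE; edgeR adjusted p = 0.249). Of the SP genes, whose proteins bind the same GC boxes, 4 were tested. Sp2 was lower, with a log2 difference of -0.30 ± 0.08 (SE; edgeR adjusted p = 0.0194), while Sp1 at -0.04, Sp3 at 0.04 and Sp4 at -0.21 did not pass. Of 422 other zinc finger genes of the class that the authors' family column calls zf-C2H2, 5.69% were called lower and 2.13% higher, with a median log2 fold change of 0.01.

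**Figure D5:**
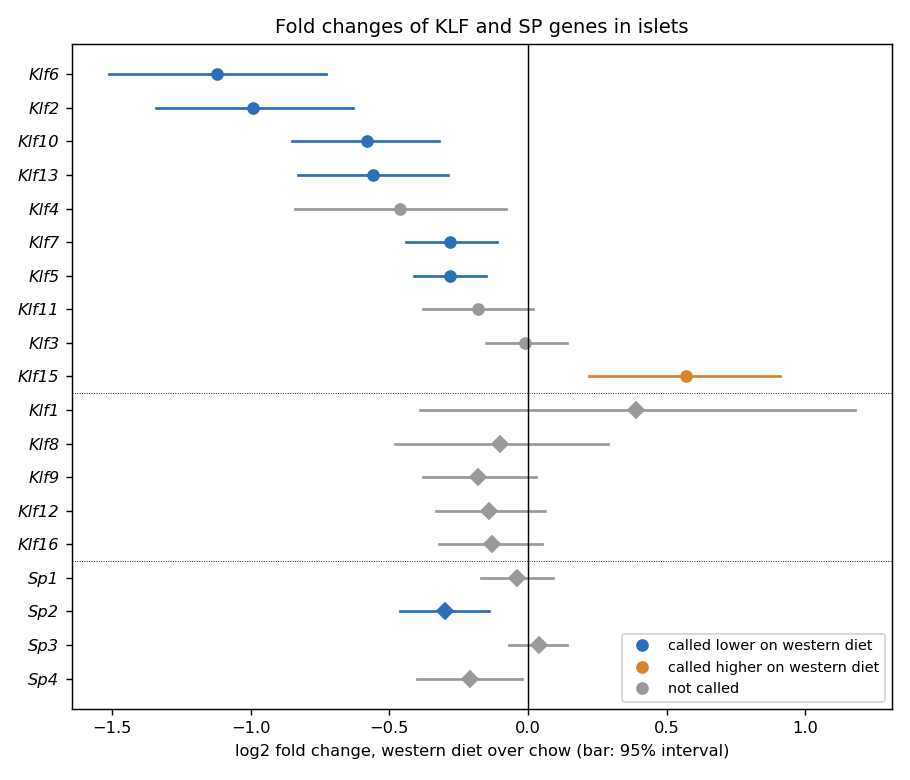
Log2 fold changes (western diet over chow, horizontal axis) with 95% intervals for the 10 genes (top), the 5 other KLF genes (middle) and the 4 SP genes (bottom). Blue marks genes called lower, orange genes called higher and grey genes not called, and the interval of Klf6 runs from -1.51 to -0.73 whereas that of Klf3 spans 0.

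Genes of routes known to induce KLF genes were read against the 5.50% called lower and 5.27% called higher over all genes. Of 7 genes of the MEK5-ERK5-MEF2 route, which induces Klf2 and Klf4 in endothelial cells under flow, 0 were called with edgeR, DESeq2 or limma-voom, and 2 had an unadjusted p under 0.05 in edgeR. These were Mef2a at -0.14 (log2; adjusted p = 0.0789) and Map3k2 at -0.14 (log2; adjusted p = 0.0803), which passed among the genes left by a filter at 5 CPM. Of 10 genes of TGF-beta and SMAD signalling, which induces Klf10 and Klf11, 0 were called with edgeR, 1 with DESeq2 and 0 with limma-voom, and 3 had an unadjusted p under 0.05 in edgeR. These were Smad3 at -0.53 (adjusted p = 0.0782), Tgfbr2 at -0.37 (adjusted p = 0.0893) and Skil at -0.30 (adjusted p = 0.114). Of 7 genes of the glucocorticoid route, which induces Klf15 and Klf9, 2 were higher and 1 was lower. The higher genes were the hormone-induced Zbtb16, with a log2 difference of 1.78 ± 0.33 (SE; edgeR adjusted p = 0.00284), and Fkbp5, a chaperone partner of the receptor, with 0.72 ± 0.12 (SE; edgeR adjusted p = 0.00724). Zbtb16 was scarce, averaging 2.34 CPM in western diet mice and 0.667 CPM in chow mice. With a filter at 5 CPM, 1 gene of this route was called higher. The lower gene was the receptor Nr3c1, with -0.17 ± 0.05 (SE; edgeR adjusted p = 0.0433), a call lost in 7 of the 10 fits that left out 1 mouse, those without western diet mouse 2, 5 or 4 of cage 4, the mouse of cage 2, or chow mouse 1, 3 or 5. Of the glucocorticoid-induced genes that did not pass, Per1 stood at -0.62 (edgeR adjusted p = 0.134) and Tsc22d3 at -0.14 (edgeR adjusted p = 0.264).

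Of 12 cofactors of KLF proteins, 1 was higher (8.33%) and 2 were lower (16.7%), against 5.27% and 5.50% of all genes tested. Sin3b, a scaffold of the repressor complex that Klf10, Klf11 and Klf13 recruit, rose by 0.22 ± 0.05 on the log2 scale (SE; edgeR adjusted p = 0.0154). The acetyltransferase genes Ep300 and Kat2b had log2 fold changes of -0.19 (edgeR adjusted p = 0.0192) and -0.20 (edgeR adjusted p = 0.0324). With 1 mouse left out, Sin3b was lost without chow mouse 1, Ep300 without western diet mouse 2 of cage 4, and Kat2b without western diet mouse 1, 2 or 4 of cage 4 or chow mouse 1, 3 or 5. Of 5 genes for ubiquitin ligase subunits that mark KLF proteins for breakdown, 0 were called with edgeR, DESeq2 or limma-voom, and 1 had an unadjusted p under 0.05, Fbxw7 (edgeR adjusted p = 0.110).

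Of 29 tested genes reported as KLF targets, 2 were higher (6.90%) and 3 were lower (10.3%). Over all genes tested, 5.27% were higher and 5.50% lower. The median log2 fold change of the 29 targets was -0.03. The lower ones were the keratin gene Krt19, with -2.64 ± 0.38 (SE; edgeR adjusted p = 7.4e-04), the urokinase gene Plau, with -1.66 ± 0.30 (SE; edgeR adjusted p = 0.00211), and the growth factor gene Pdgfa, with -0.26 ± 0.07 (SE; edgeR adjusted p = 0.0288). Krt19 and Plau were scarce, averaging 0.570 and 0.826 CPM in western diet mice and 3.58 and 2.59 CPM in chow mice. The higher ones were the cyclin gene Ccnd1, with 0.24 ± 0.06 (SE; edgeR adjusted p = 0.0133), and the cell cycle inhibitor gene Cdkn1a, with 0.67 ± 0.18 (SE; edgeR adjusted p = 0.0452). Cdkn1a was still called without the mouse of cage 2 and lost without any 1 of the other 9 mice, and Pdgfa was lost without any 1 mouse of cage 4 and without chow mouse 1 or 3. Pdx1, a beta cell factor gene, stood at -0.23 (edgeR adjusted p = 0.109). The insulin genes Ins1 and Ins2 stood at 0.11 (edgeR adjusted p = 0.207) and 0.07 (edgeR adjusted p = 0.337).

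Most of a list of other early response and heat shock genes was lower (77.3%, against 5.50% of all genes tested), as were Klf2, Klf6 and Klf10. Of 22 such genes 17 were lower (15 to 18 over the alternatives) and 0 were higher with edgeR, DESeq2 or limma-voom or at an unadjusted p under 0.05, with a median log2 fold change of -0.68, and they summed to 10572 to 13096 CPM in libraries of western diet mice and to 18467 to 22825 CPM in chow libraries. Jun was lower with a log2 difference of -1.02 ± 0.06 (SE; edgeR adjusted p = 1.1e-07) and the heat shock gene Dnajb1 with -1.77 ± 0.10 (SE; edgeR adjusted p = 2.1e-06). The 5 that did not pass were Hsph1 at -0.51, Cebpb at -0.32, Cebpd at -0.19, Myc at -0.01 and Socs3 at 0.17 (log2). The mouse of cage 2, lowest for Klf2 and Klf6, had the lowest sum of this list. Among the heat shock genes, this mouse was the lowest of its diet for Hsph1, at 234 CPM, but not for Dnajb1, Hspa1a or Hspa1b. The labels state that islets were processed at once after isolation, and the part of tissue handling in the levels of the KLF genes was not tested.

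Markers of other cells of an islet preparation were set beside the KLF genes. Over all genes tested, 5.50% were called lower and 5.27% higher. The 8 endothelial markers summed to 358 to 414 CPM in libraries of western diet mice and to 415 to 457 CPM in chow libraries, without overlap, and 1 of the 8 was called (3 with DESeq2), Kdr, with a log2 difference of -0.28 ± 0.05 (SE; edgeR adjusted p = 0.00313). Without Kdr the other 7 overlapped, at 269 to 324 CPM in western diet mice and 297 to 345 CPM in chow mice. Of these 7, Flt1 stood at -0.15 (edgeR adjusted p = 0.0531) and Cdh5 at -0.29 (edgeR adjusted p = 0.0565). Tek was at -0.18, Pecam1 and Esam at -0.05, Plvap at 0.05 and Emcn at 0.08 (log2). Klf2 and Klf4, which are well known in endothelium, had log2 fold changes of -0.99 and -0.46, the latter not called with edgeR. The part of endothelial cells in these values was not tested. The 8 duct markers summed to 565 to 674 CPM in libraries of western diet mice and to 706 to 897 CPM in chow libraries, also without overlap, and Krt19 and Krt8 were lower. Without these 2 the other 6 overlapped, at 399.9 to 458 CPM in western diet mice and 413 to 473 CPM in chow mice, with Krt7 at 0.06 and Spp1 at 0.04 (log2), neither called. The 8 macrophage markers summed to 61.8 to 93.5 CPM in libraries of western diet mice and to 77.0 to 96.7 CPM in chow libraries, and C1qa was lower, with a log2 difference of -0.51. The other 7 were not called with edgeR, and DESeq2 called 2 of the 8 lower. Of the 7, Cd14 stood at -0.61 (edgeR adjusted p = 0.0626), Adgre1 at -0.30, Cd68 at -0.20 and Csf1r at -0.03 (log2). C1qb at 0.11 and C1qc at 0.16, whose products form a complex with that of C1qa, went the other way, as did Lyz2 at 0.40 (log2). The 8 fibroblast and stellate markers summed to 26.9 to 54.2 CPM in libraries of western diet mice and to 30.1 to 142 CPM in chow libraries, and Pdgfrb was lower. The 10 acinar markers ranged more widely, from 782 to 5649 CPM in western diet libraries and from 682 to 2796 CPM in chow libraries, and 0 of 9 tested were called with edgeR, DESeq2 or limma-voom or had an unadjusted p under 0.05. The 7 lymphocyte markers summed to 8.16 to 29.9 CPM in libraries of western diet mice and to 6.92 to 15.8 CPM in chow libraries, and 6 of them were at 0 in some library. The 7 markers of alpha, delta and PP cells summed to 13132 to 16595 CPM in libraries of western diet mice and to 12727 to 18370.2 CPM in chow libraries, with 0 called with edgeR, DESeq2 or limma-voom and 1 at an unadjusted p under 0.05. Of the 8 beta cell markers, G6pc2 was higher and Slc2a2 lower. The part of these cells in the KLF levels was not tested.

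Of the 10 genes, 3 overlap other annotated genes, and no source used here says whether reads were counted by strand. Klf3 overlaps Gm20033 on the opposite strand, which had 12 to 37 counts, and C230096K16Rik on the same strand, which had 14 to 37 counts. Klf13 overlaps Gm27252 on the opposite strand, which had 6 to 18 counts, and E030018B13Rik, also on the opposite strand, which had 0 to 16 counts. Klf7 overlaps Gm13748 on the opposite strand, which had 0 to 5 counts, and Gm26649 and Mir6899, for which no counts were used here. The 3 KLF genes had at least 556, 993 and 291 counts per library for Klf3, Klf13 and Klf7, more than the counts of any partner given here.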

How the data were processed

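RNA was sequenced from islets of 10 mice, 5 per diet. The authors deposited whole-number read counts per gene, and in the same table FPKM per library, which divide those counts by depth and gene length, per the file headers. The submitters' processing notes list STAR 2.5, HTSeq 2 and DESeq2, with mm10 and GRCm38 as builds. The deposited log2 fold changes and adjusted p-values are the authors' own. Another 10 columns of per-library normalized values were not used.

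The test was edgeR 4.0.16 under R 4.3.3 (TMM factors, filterByExpr with a minimum count of 10, robust quasi-likelihood, no covariate), with Benjamini-Hochberg adjustment over 15104 genes. The SE of a fold change is its absolute log2 value over the square root of F. The genes and lists were chosen with earlier results of these data known. Genes named beside the 10 are other KLF and SP genes tested, up to 4 genes a list by smallest p, and the 3 nearest profiles of the 3 genes with the smallest p. Cdkn1a, Tsc22d3 and further list members were named after their values were seen. Alternatives were DESeq2 1.42.0, limma-voom (limma 3.58.1), no robust moderation, factors by RLE or upper quartile, a filter at 5 CPM or none, mouse number as a block, and mice left out; leaving called markers out of marker sums was chosen after seeing the data. Coordinates are the table's, the same for all 10 genes in GENCODE M21. The tests were checked on simulated counts.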

Additional observations from a re-analysis of the deposited data

How the results depend on the processing

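Klf2, Klf5, Klf6, Klf10 and Klf13 were called lower under all 19 alternatives, Klf7 under 10 and Klf4 under 3. Klf15 was called higher under 10, and Klf3 and Klf11 were called under 0. With no filter on low counts, 0 of the 10 genes were called higher, since Klf15 had an adjusted p of 0.0694, and 0 to 1 were called higher when mice were left out in turn. The number of the 10 genes called lower was 5 to 6 when mice were left out in turn and 7 with DESeq2, limma-voom and without robust moderation. The log2 fold change of Klf3 was 0.00 with limma-voom and -0.04 to 0.03 with mice left out. Over all genes, 562 to 892 were called lower and 376 to 921 higher when mice were left out in turn. Mouse numbers name different mice in different cages, and same-numbered mice correlated at -0.129 to 0.048, so the numbers do not pair them. With mouse number as a replicate block, 499 genes were lower and 342 higher, and of the 10 genes 5 were lower and 1 higher, without Klf7 (adjusted p = 0.117). The mean total count per library, in units of 1e+06 reads, differed by 0.28 (western diet minus chow), by -0.77 to 1.25 with mice left out in turn, and by -0.95 with the mouse of cage 2 and chow mouse 1 both left out (exact permutation p = 0.841 for all mice, and 0.743 with both left out). Causes were not tested. Other scalings moved the median of all genes by -0.005 to -0.012. Of the other list counts, 589 were close to their first value, 33 had fewer genes and 24 had more. With 5 mice per diet, intervals such as that of Klf4 leave the size of small changes wide.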
